A study of Mus musculus with 9 samples.

Results

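A list of 30998 RNA peaks, deposited with a series of SAFB1 immunoprecipitations from mouse embryonic stem cells, held 385 sense peaks close to the starts of protein-coding genes (1.24%). A peak was taken when its midpoint lay 0 to 2000 bases downstream of the 5′ end of a protein-coding gene record on the same strand (GENCODE M21, mm10) and the record was at least 10 kb long. Peaks in exons, untranslated regions and introns all counted, and these peaks are called start peaks here. They lay in 374 of 14164 such genes (2.64%, 95% Wilson interval 2.39 to 2.92), of which 361 genes held 1 and 13 genes held 2. A pair of peaks belonged to the starts of 2 genes each, Poln with Haus3 and Rnase4 with Ang, and were counted once. The label was checked against the annotation: 344 of the 385 peaks also lay within 2000 bases downstream of a principal transcript start of their gene, and 41 did not.

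The series has 9 libraries of RNA recovered by immunoprecipitation (RIP-seq), all from a CAST/B6 Male Rosa26-RMCE embryonic stem cell line given doxycycline for 3 days in every group. The SAFB1 antibody was used on wild-type cells (3 libraries, the parent line and clones 20 and 44) and on Safb and Safb2 double-knockout cells (2 libraries, clones 4 and 13). IgG was used on wild-type cells (2 libraries, the parent line and clone 20), and a FLAG antibody on double-knockout clone 13 with an eGFP plasmid (1 library) or a full-length Safb1 plasmid (1 library, whose genotype tag reads WT while its title names the knockout clone). The file is 1 list of positions that names no library and gives no read counts, and which libraries its peaks rest on is not given in the sources used here, so antibodies and genotypes could not be compared, depth is unknown, nothing has replicates, and the cell type could not be checked by expression. Intervals cover counting error only and take each gene or peak as independent of the others.

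SAFB1 and SAFB2 are nuclear proteins with a DNA-binding SAP domain and an RNA recognition motif, and SLTM is their relative. They bind nascent and processed RNA and have been described as favouring purine-rich stretches. The start of a protein-coding gene is where RNA polymerase II begins transcription, pauses and enters elongation, and where the capped first exon meets the 5′ splice site of the first intron. Many mammalian promoters are also transcribed in the opposite direction, which gives short-lived upstream antisense RNA.

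The coding exons under start peaks held purine runs of the following kind. The stretches shown are, for each peak with at least 30 coding bases in a row, the 30 bases richest in A and G. Of 117 such peaks, the 8 with the highest counts of purines are printed, so that a reader can see the most purine-rich coding stretches among them. They were picked for that property and support nothing by themselves. Bases outside coding sequence were not ranked. Sequences are the sense strand of GENCODE M21 transcripts in coding sequence of at least 1 transcript, and capitals mark the hexamer GAAGAA and the overlapping forms that start 1 base earlier, AGAAGA, or 2 bases earlier, as AAGAAG.
Nom1, chr5:29435386-29435415, plus strand: gaaagcagcgaggaagaggagGAAGAAaag
Znhit6, chr3:145576754-145576783, plus strand: gaaggaagagaaggtgaaggtgaaggagga
Wnk3, chrX:151198504-151198533, plus strand: agaaaactgaaaaggaaatgGAAGAAGAAG
Eif5b, chr1:37998292-37998321, plus strand: gggGAAGAAacagaaaaacaagagcgaaga
Cmya5, chr13:93144394-93144423, minus strand: ggaggaggagtcggagggcgagggggagga
Klhl41, chr2:69670389-69670418, plus strand: gaaattgaggaggagaaaaaaaaggaggta
Rexo4, chr2:26962480-26962509, minus strand: gaacagagcAGAAGAAaggagccAAGAAGA
Mettl6, chr14:31493744-31493773, minus strand: GAAGAAGAggagaaactgaaaagagaccaa

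Nom1, a nucleolar protein gene, and Znhit6, an assembly factor gene of box C/D snoRNPs, had 28 purines in 30 bases. Wnk3 (a kinase acting on ion cotransporters), Eif5b (a translation initiation factor), Cmya5 and Klhl41 (both known from striated muscle) had 27, and Rexo4 and Mettl6 (a tRNA methyltransferase) had 26. At the other end, fewer than 15 of the 30 bases were purines even in the richest stretches of the peaks of Opa3 and Stpg4.
Opa3, chr7:19228523-19228552, plus strand: caaggatgctgcccgccgcagcgagttctt
Stpg4, chr17:87427634-87427663, minus strand: atggccgagccaaccgttgtcatagccccc

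Opa3, which encodes a mitochondrial protein, had 14 purines in its richest 30 coding bases and Stpg4 had 13. The count in the richest stretch depends on how many coding bases a peak holds. The Stpg4 peak was 85 bases wide in all, and 22.7% of the Opa3 peak was exonic. The median over the 117 peaks was 23, and 33 of them had at least 1 of the hexamers in the chosen stretch. Not every start peak therefore covered a purine run in coding sequence.

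Sense peaks were more frequent inside the gene than upstream of it, and, past the first 400 bases, about as frequent near the start as further in. In the 2 kb upstream of the start, 170 genes had a sense peak (1.20%, 1.03 to 1.39). The share was 2.64% in the first 2 kb and 2.70% (2.45 to 2.98) in the 2 kb that follow. The next windows of the same size held 2.90% (2.64 to 3.19), 3.03% (2.76 to 3.32) and, at 8 to 10 kb, 3.28% (3.00 to 3.58). The ratio of the first window to the second was 0.977 (0.847 to 1.13), and the intervals of these neighbouring windows overlap, while those of the first and the fifth do not. The last 2 kb of the same genes held a peak in 3.93% (3.62 to 4.27). Start peaks were 2.09% of the 18428 sense peaks in these genes.

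Within the first 2 kb the peaks were not spread evenly. The first 500 bases held a peak midpoint in 62 genes and the next 500 in 130, a ratio of 0.477 (0.352 to 0.645). Counted in steps of 200 bases, 19 genes had a midpoint in the first step and 23 in the second, then 50, 51, 49 and 57 in the next 4, up to 1200 bases, and between 29 and 38 in the last 4. From 2 to 10 kb the same steps held 30 to 60 genes, with a median of 44.5. A peak that lies wholly inside the transcript cannot have its midpoint at the start itself, so cover by peaks was read as well. The base at the start itself was under a sense peak in 0.339% of genes (0.256 to 0.449), the base at 500 in 1.24% (1.07 to 1.44), that at 900 in 1.48% (1.30 to 1.70), the highest of the positions read in the window together with 800, and that at 2000 in 1.26% (1.09 to 1.46). Cover at 5000 was 1.38% (1.20 to 1.59), within the interval of the value at 900, and at 10000 it was 1.49% (1.30 to 1.70). It was 1.67% (1.47 to 1.90) at 9700, the highest of all sense positions read and above the interval at 500. Cover of the sense strand thus rose steeply over the first 500 bases, and was higher still at some positions near 10 kb. Genes from 10 kb long were included, so positions and windows near 10 kb lie close to the ends of the shortest ones. Distance from the start was not separated there from nearness to the gene end.

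**Figure D1:**
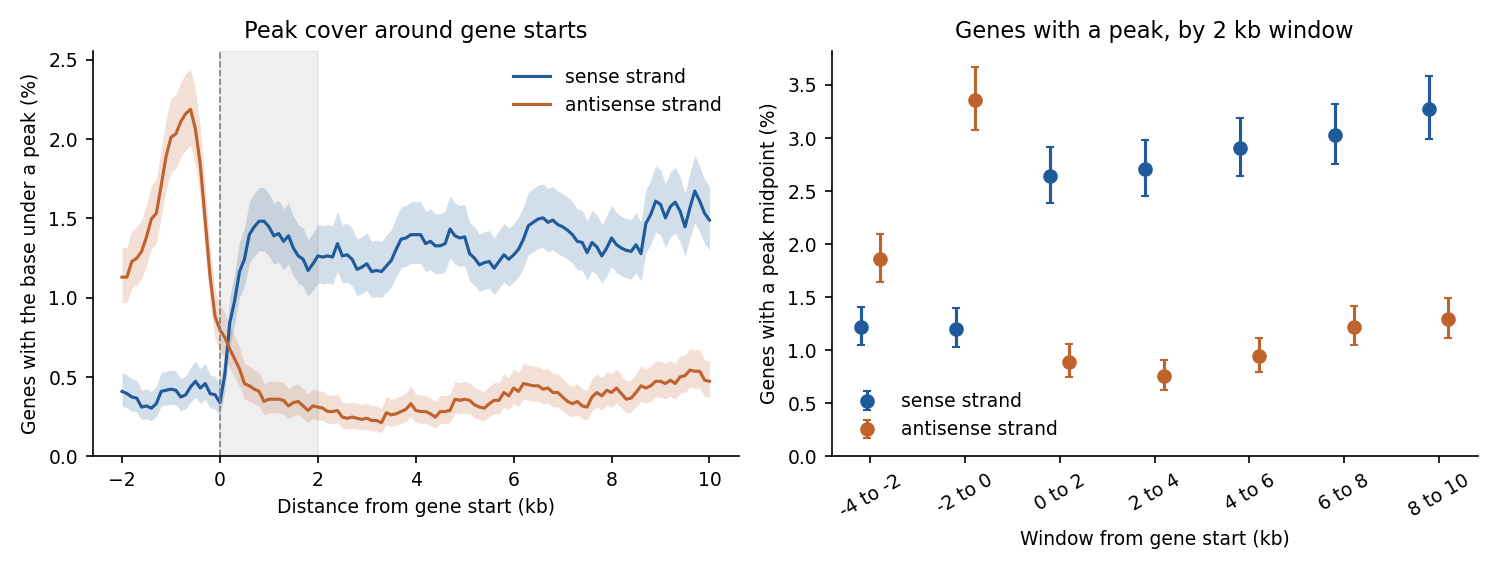
Left, share of the 14164 genes (%) whose base at each distance from the gene start (kb) was under a peak on the gene's strand or the opposite one, with shading for 95% Wilson intervals and the first 2 kb in grey. Right, share of genes with a peak midpoint in each 2 kb window, with the same intervals; the sense share goes from 1.20% upstream to 2.64% in the first window, and the antisense share is 3.36% just upstream.

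On the opposite strand the picture was reversed. The 2 kb upstream of the start held an antisense peak in 476 genes (3.36%, 3.08 to 3.67), more than held a start peak on the sense strand. The first 2 kb downstream held one in 126 genes (0.890%, 0.748 to 1.06). Antisense midpoints were most frequent between -800 and -601 bases, with 92 genes in that step. Genes with a start peak had an upstream antisense peak in 13 of 374 cases (3.48%, 2.04 to 5.86), and genes without one in 463 of 13790 (3.36%, 3.07 to 3.67), so the share in genes without one lay within the interval of the other. When peaks narrower than the list's median of 596 bases were dropped, the shares were 1.22% (3 of 246 genes, 0.416 to 3.52) and 2.39% (2.15 to 2.66), again with overlapping intervals. With peaks of all widths, genes with an opposite-strand gene start within 1000 bases upstream were also counted apart. Without a start peak, 107 of 1643 such genes had an upstream antisense peak (6.51%, 5.42 to 7.81). Of the remaining genes without a start peak, 356 of 12147 did (2.93%, 2.65 to 3.25). With a start peak, the counts were 3 of 70 and 10 of 304. Whether these peaks come from RNA of the neighbouring gene was not tested. Sense peaks in the 2 kb upstream were found at 11 of the 374 genes (2.94%, 1.65 to 5.19) and at 159 of the others (1.15%, 0.988 to 1.35), with intervals that do not overlap. Among the 11 genes were Pcdhga2 and Pcdhgb4, of the nested gamma protocadherins described below. This share was not computed without that family.

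Most start peaks sat in the first intron. Their midpoint lay in a first intron in 217 cases (56.4%, 51.4 to 61.2), in coding sequence in 81 (21%, 17.3 to 25.4), in a 5′ untranslated region in 45 (11.7%, 8.85 to 15.3), in another exon in 28 (7.27%), in a later intron in 13 (3.38%) and in a 3′ untranslated region in 1, that of Zfp672. Exons of all transcripts of the gene were used, so "other exon" means an exon of a transcript with no coding sequence. Exons together held 155 (40.3%, 35.5 to 45.2). Among the 1711 sense peaks 2 to 10 kb from the start exons held 19.6% (17.8 to 21.6), and among the 16332 beyond 10 kb 12.1% (11.6 to 12.7). By definition the first exon of the outermost transcript begins in the start window, though those of other transcripts need not. The share of exonic bases is larger there.

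Base for base, exons near the start were covered more than introns, by a smaller factor than further in. Sense peaks covered 1.95% of the exonic bases and 0.991% of the intronic bases of the first 2 kb, a ratio of 1.96. From 2 to 10 kb they covered 2.97% and 1.20%, a ratio of 2.48. Without the gamma protocadherin genes described below, the ratio in the first 2 kb was 1.62 and from 2 to 10 kb 2.51. In genes with a start peak, exons made up a median of 21.5% of the first 2 kb (quartiles 10.5 and 48.8), against 16.7% (9.30 and 29.3) in genes without.

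Many peaks crossed the border of exon and intron. Of the 385 peaks, 151 held no exonic base, 74 were wholly exonic and 160 held both. The midpoints in first introns lay a median of 677 bases past the nearest upstream exon end (quartiles 385 and 1044), 78 of them within 500 bases, and 74 of these 217 peaks reached into an exon. The upstream edge of a start peak lay a median of 485 bases from the gene start (quartiles 176 and 907). It fell before or at the start in 24 peaks, in the first 100 bases in 27, in the second 100 in 55 and in the third 100 in 31. Most start peaks therefore began inside the annotated transcript.

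**Figure D2:**
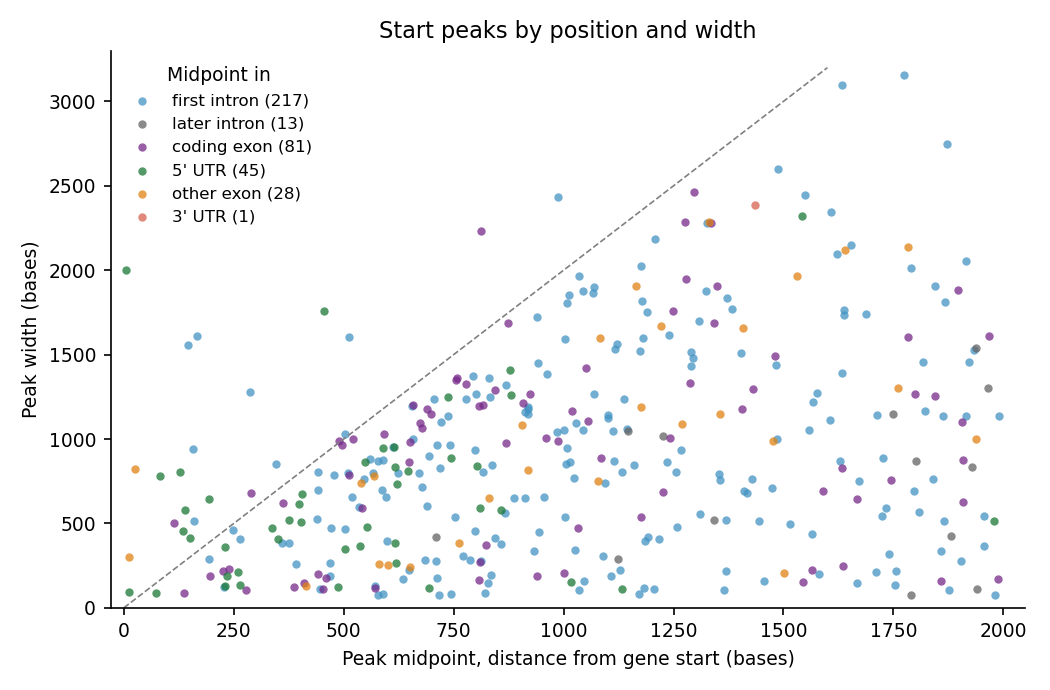
Each point is 1 of the 385 start peaks, by the distance of its midpoint from the gene start (bases) and its width (bases), with colour for the place of the midpoint and counts in the legend. Points on the dashed line have their upstream edge at the gene start; 24 peaks reach the start or beyond it, and peaks in 5′ untranslated regions lie nearest to it, with a median midpoint of 502 bases.

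By median, start peaks were wider than sense peaks further in. Their median width was 827 bases (interval of the median from order statistics 764 to 885, quartiles 398 and 1264, range 74 to 3154). It was 703 (664 to 754) for peaks 2 to 10 kb from the start and 644 (631 to 657) beyond 10 kb, and these intervals do not overlap. Quartiles were 326 and 1273 from 2 to 10 kb and 308 and 1176 beyond. The upper quartile at starts was thus not above that from 2 to 10 kb. With intronic peaks alone the medians were 840, 691 and 633. With exonic peaks alone they lay closer together, at 814, 760 and 726. Without the gamma protocadherin genes described below the median of start peaks was 804. In genes whose first 2 kb was clear of other gene records of the same strand it was 803. No interval is given for these medians. Peaks in 5′ untranslated regions were the narrowest class, with a median of 519 bases, against 845 in first introns, 986 in coding sequence and 993.5 in other exons. The share of peaks at least 2000 bases wide did not follow the medians: it was 6.23% (4.22 to 9.11) at starts, 7.19% (6.06 to 8.51) from 2 to 10 kb and 5.58% (5.24 to 5.95) beyond.

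The 10 widest start peaks were mostly first-intron peaks. Net1, a guanine nucleotide exchange factor gene, had the widest (chr13:3914869-3918022, minus strand, 3154 bases), with its midpoint in the first intron 1774 bases from the start and 3 further sense peaks in the gene. L1cam, a neural cell adhesion molecule gene on the X chromosome, had the next (chrX:73892925-73896021, 3097 bases, 2.39% exonic), and it was the only sense peak of that gene. The midpoint of the L1cam peak also lay inside the Arhgap4 record on the same strand. It was not within 2000 bases downstream of a principal L1cam transcript start. Catsperg1, a subunit of the sperm calcium channel, had 2748 bases, Opa3 2599 and the first gamma protocadherin gene, Pcdhga1, 2466. They were followed by St6gal1, a sialyltransferase (2448), Thap2 (2435), the zinc-finger gene Zfp672 (2384, wholly exonic), Zfr2 (2345) and Mettl6 (2324). The peaks of L1cam, Opa3, Zfp672 and Zfr2 had no companion in the gene.

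At the other edge, 10 peaks had their midpoint within 137 bases of the start. Maml2, a co-activator gene of Notch signalling (chromosome 9, 13297957 to 13709388), had a peak of 2000 bases centred 4 bases from its start (chr9:13296961-13298960), with its upstream edge at -996 bases, ahead of the annotated gene. Natd1 and Pcdhga4 followed at 12 bases, with widths of 300 and 92, and Usp44, a deubiquitinase gene, at 26 with a width of 821. Stpg4 (73 bases), Pcdhgb7 (83), Gm49354 (113), Zfp827 (127), Bcl11b, a transcription factor gene (135), and Ddx21, a nucleolar RNA helicase gene (137), completed the set. The peak of Ddx21 was 89 bases wide (chr10:62602100-62602188) and lay in coding sequence, and the gene held 3 further peaks. Of the 10 peaks, those of Stpg4 and Ddx21 began downstream of the annotated start and the others upstream of it.

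Just inside the limit of 2000 bases lay the peaks of Mfap1b (midpoint at 1990), Spock2 (1980), Vrtn (1978) and Sp4 (1967). Just outside lay those of Sfmbt2 (1 base past the limit), Adamts15 (2004), Etv6 (2008), Dcaf17 (2015) and Tmprss5 (2026). Their widths ran from 76 to 1609 bases inside and from 181 to 1290 outside.

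Genes rich in peaks along their body were among those with a start peak. The glypican gene Gpc6 had 72 sense peaks, 1 of them a start peak of 1199 bases in coding sequence (chr14:116925373-116926571). The ankyrin gene Ank2 had 54, Shisa6, which encodes an auxiliary subunit of AMPA receptors, and Xkr4 52 each, the potassium channel gene Kcnq3 and Maml3 38 each, the zinc-finger gene Zfp423 37, Nxpe4 35, the transcription factor gene Ebf1 34 and Auts2 32. The start peaks of these 10 genes were 814 to 2015 bases wide. In Ank2, Kcnq3, Maml3 and Ebf1 the start peak was wholly exonic, and in Zfp423 and Nxpe4 wholly intronic. The midpoints in Ank2 and Kcnq3 lay in exons of transcripts with no coding sequence. The start peaks of Ank2 and Auts2 were among the 41 not within 2000 bases downstream of a principal transcript start.

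Other genes carried a start peak and nothing else. In 133 of the 374 genes no further sense peak lay beyond the first 2 kb. The longest was Lrfn5, a synaptic adhesion gene of 335 kb (chr12:61523534-61524372, 839 bases, 5′ untranslated region). Others were Wnk3 (122 kb), the chromatin remodeler gene Chd2 (115 kb), the scaffold gene Iqgap1 (114 kb), Cmya5 (104 kb), Bcl11b (93.2 kb), Dnhd1 (71.0 kb), Phactr4 (66.6 kb) and Efhb (64.4 kb). The widths of these 9 peaks ran from 207 bases in Chd2 to 1423 in Dnhd1. In Lrfn5 and Chd2 the peak was wholly exonic. The midpoints of the Chd2 and Dnhd1 peaks also lay in another gene record of the same strand.

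As a group, however, genes with a start peak held further sense peaks more often than genes without. A peak beyond 2 kb was found in 241 of 374 genes with a start peak (64.4%, 59.5 to 69.1) and in 4905 of 13790 without (35.6%, 34.8 to 36.4), where 36.3% of all 14164 genes had one. The difference was present in each class of gene length. In genes of 10 to 30 kb the shares were 49.7% (42.2 to 57.2) and 19.3% (18.3 to 20.3). Genes of 30 to 100 kb had 65.6% (57.0 to 73.3) and 40.9% (39.6 to 42.3). The next class, up to 300 kb, had 92.2% (83.0 to 96.6) and 67.0% (64.8 to 69.1), and longer genes had 94.1% (73.0 to 99.0) and 67.6% (63.6 to 71.4). Counted only beyond 10 kb from the start, which was added after seeing the data, the shares over all genes were 51.3% (46.3 to 56.4) and 30.7% (29.9 to 31.5). Per Mb of gene past the first 2 kb there were 51.8 further peaks in genes with a start peak and 17.6 in genes without. A peak in overlapping gene records counts once for each record in these rates, and without the nested gamma protocadherin genes described below they were 45.3 and 17.6. RNA abundance was not used, and its part in this difference was not tested.

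**Figure D3:**
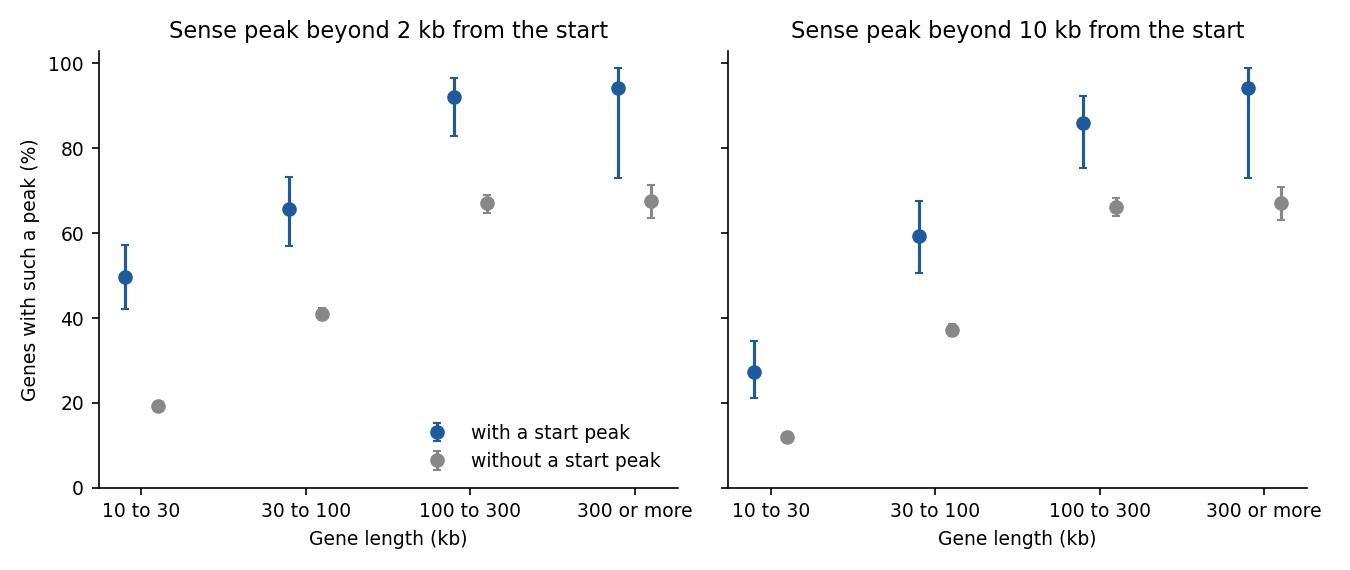
Share of genes (%) with a sense peak more than 2 kb (left) or more than 10 kb (right) from the start, by gene length (kb), for genes with and without a start peak; bars are 95% Wilson intervals. In each length class the genes with a start peak lie higher, from 49.7% against 19.3% in the shortest class on the left.

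Start peaks were about as frequent in short as in long genes. The shares were 2.54% (2.18 to 2.95), 2.48% (2.09 to 2.94), 3.32% (2.61 to 4.22) and 3.00% (1.88 to 4.75) in the 4 length classes in order, with overlapping intervals.

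The gene family that stood out was the gamma protocadherins, a group noted after its values were seen. Clustered protocadherins are neuronal cell adhesion molecules. Each alpha and gamma gene has its own promoter and a long variable first exon, which is spliced to constant exons shared by the family, while beta genes lack shared exons. A start peak was found in 20 of 21 gamma genes (95.2%, 77.3 to 99.2) and in 0 of 14 alpha genes, which allows a share of up to 21.4% (3 counts of the 14). The 22 beta genes are all shorter than 10 kb and outside the rule, and none had a sense peak in the first 2 kb of its record. The families resemble each other in the length of the first exon, with medians of 2494 bases in alpha and 2608 in gamma genes.

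Together the gamma genes gave 24 start peaks, 22 of them with the midpoint in coding sequence. Widths ran from 92 to 2466 bases with a median of 1003, and the widest were those of Pcdhga1 (2466), Pcdhga8 (2287), Pcdhgc3 (2282) and Pcdhga9 (2230). Pcdhga4, Pcdhga5, Pcdhga11 and Pcdhgb7 had 2 each. The remaining gene, Pcdhga3, had its peak at 2532 bases from the start, still in the variable exon and 121 bases wide. Every one of the 21 variable exons therefore held a sense peak. Over the 180 kb from the start of Pcdhga1 to the shared 3′ end there were 31 sense peaks, 27 of them in variable exons, which make up 31.4% of that length. Antisense peaks numbered 2 over the same stretch. The gamma records are nested, each running to the same 3′ end, so the unspliced RNA of an upstream gene also contains the variable exons of those downstream, and the list cannot tell these RNAs apart. Variable exons also resemble one another in sequence, and how reads matching several of them were treated is not given in the sources used here.

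**Figure D4:**
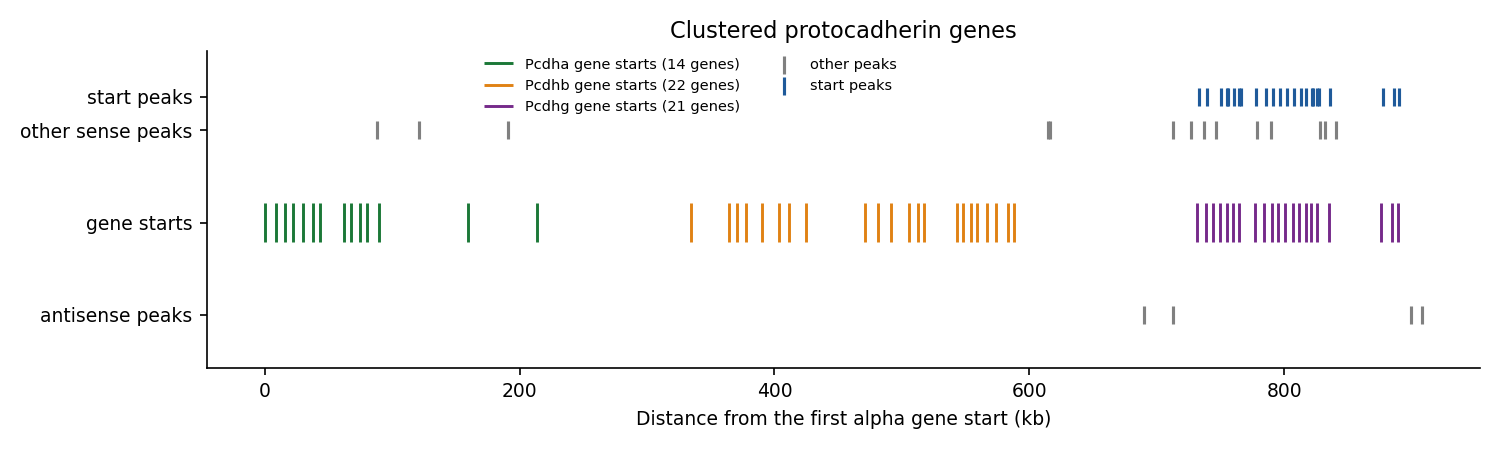
Positions (kb from the start of the first alpha gene) of gene starts of the alpha, beta and gamma protocadherins and of peaks on the sense and antisense strands, with start peaks on a row of their own. All 24 start peaks lie in the gamma cluster at the right, where 20 of 21 genes have one.

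With the gamma genes left out (added after seeing the data), 354 of 14143 genes had a start peak (2.50%, 2.26 to 2.77) and the exonic share of the peaks was 36.3% (31.5 to 41.4). Coding sequence then held 59 of 361 peaks (16.3%, 12.9 to 20.5). All 24 gamma peaks lay inside another gene record of the same strand. So did 27 of the other start peaks, giving 51 in all whose RNA could also belong to the overlapping record.

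The remaining genes with 2 start peaks were Safb2, Bcl2, Etv5, Tpm1, Slc3a1, Slc9b2, Zscan29, 1700030K09Rik and 9330159F19Rik. In Bcl2, the apoptosis inhibitor gene, both were wholly exonic, 477 bases in the 5′ untranslated region (chr1:106713482-106713958) and 1257 in coding sequence (chr1:106711802-106713058). In Etv5, an ETS transcription factor gene, both were wholly intronic, 195 and 764 bases wide. In the tropomyosin gene Tpm1 the pair was 797 and 227 bases wide, at 623 and 1565 bases from the start.

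The genes of SAFB1 and SAFB2 themselves were among those with start peaks. Safb (ENSMUSG00000071054.12, plus strand) and Safb2 (ENSMUSG00000042625.16, minus strand) are transcribed away from each other on chromosome 17, with starts 240 bases apart. Safb had a start peak of 902 bases (chr17:56585067-56585968) with the midpoint in its first intron at 693 bases, and 12 further peaks. Safb2 had start peaks of 228 bases (chr17:56584232-56584459) and 151 bases (chr17:56582965-56583115), both with the midpoint in coding sequence, and 8 further peaks. Of 417 such head-to-head pairs of protein-coding genes of at least 10 kb, with starts no more than 1000 bases apart, this was the 1 pair with a start peak on both sides, and 40 pairs had one on a single side. Sltm, the third family member, had none. Both genes were knocked out in some libraries of the series.

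Among the gene lists compared, start peaks were as rare as over all genes. Across the 16 lists, 9 of 368 genes of at least 10 kb had one (2.45%), beside 2.64% of all genes tested, and any sense peak was found in 37.3% of all genes tested. Chromatin regulators had 3 of 39: Smarcc1, a subunit of BAF remodeling complexes (1879 bases, first intron), the histone demethylase gene Kdm2b (581 bases, 5′ untranslated region) and Chd2 (207 bases, coding). Splicing genes had 1 of 27, Srsf11 (963 bases, wholly intronic), RNA helicases 1 of 25, Ddx21, ubiquitin and proteasome genes 1 of 34, the proteasome subunit gene Psma1 (1094 bases), and translation initiation genes 1 of 21, Eif5b (213 bases). The SAFB family had 2 of 3. The midpoints of the Chd2, Kdm2b and Srsf11 peaks also lay in another gene record of the same strand. Among list genes whose first 2 kb was clear of such records, 6 of 350 had a start peak (1.71%, added after seeing the data). Over all genes clear of such records the share was 2.44% (321 of 13181).

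No start peak was found in the 32 genes for pause release and elongation, though 15 of them held a sense peak elsewhere. The same held for hnRNP and nuclear matrix proteins (0 of 27 at the start, 8 with any peak), ribosome biogenesis (0 of 28, 12 with any), DNA replication and repair (0 of 37, 22 with any), growth signalling (0 of 32, 23 with any) and pluripotency factors (0 of 18, 9 with any). Lists of this size limit what 0 can show: it allows up to 9.38% of the elongation genes and 16.7% of the pluripotency factors (3 counts of the list), both above the share over all genes. The listed markers of other cell types had no start peak either, with 0 of 14 neuronal, 0 of 10 primitive endoderm, 0 of 10 fibroblast and 0 of 11 liver and blood genes. These lists hold only some genes of each type. Genes off the lists that are known from neurons did have start peaks, such as L1cam and, named after their values were seen, the neurofilament gene Nefm (273 bases, coding, wholly exonic), Tagln3 (122 bases, coding) and Basp1 (1740 bases, first intron). Genes known from neurons were not counted as a whole, so no share of them can be set beside that over all genes. The L1cam peak also lay inside the Arhgap4 record of the same strand, so its RNA could belong to either gene.

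Exonic RNA under start peaks held more purines and less G and C than exons at the same distances in other genes. Sequence was read for the 210 peaks with at least 100 exonic bases, since only transcripts were at hand and intronic bases could not be read. A and G made up a median of 52.7% of a peak (quartiles 50.0 and 57.4), and 156 of the 210 were above 50%. Pooled over bases the share was 52.6%, against 50.2% in exons of genes without a start peak weighted to the same distances, and 49.9% in exonic bases outside the peaks of the genes with one. The surplus was in A, at 25.9% against 22.1%, and not in G, at 26.7% against 28.2%. In coding bases alone the purine shares were 53.4% and 51.6%. No test was run on these shares.

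The difference in G and C was found in the first part of the window. Pooled, G and C made up 51.4% of the exonic bases of start peaks and 54.9% at the same distances in genes without. Under peaks it was lower in each of the first 14 steps of 100 bases, and higher in 5 of the 6 steps after them. At 200 to 299 bases the values were 57.8% and 64.0%. The share of A and G was higher under peaks in all 20 steps. Later sense peaks of the same genes, 202 with enough exonic bases, had a median purine share of 54.0% and a median of 48.4% G and C, against 52.4% G and C in start peaks. Pooled over the window, G and C in the exonic bases of start peaks thus lay below that of exons at the same distances in other genes. Their median lay above that of later peaks, for which no comparison at equal distance was made.

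**Figure D5:**
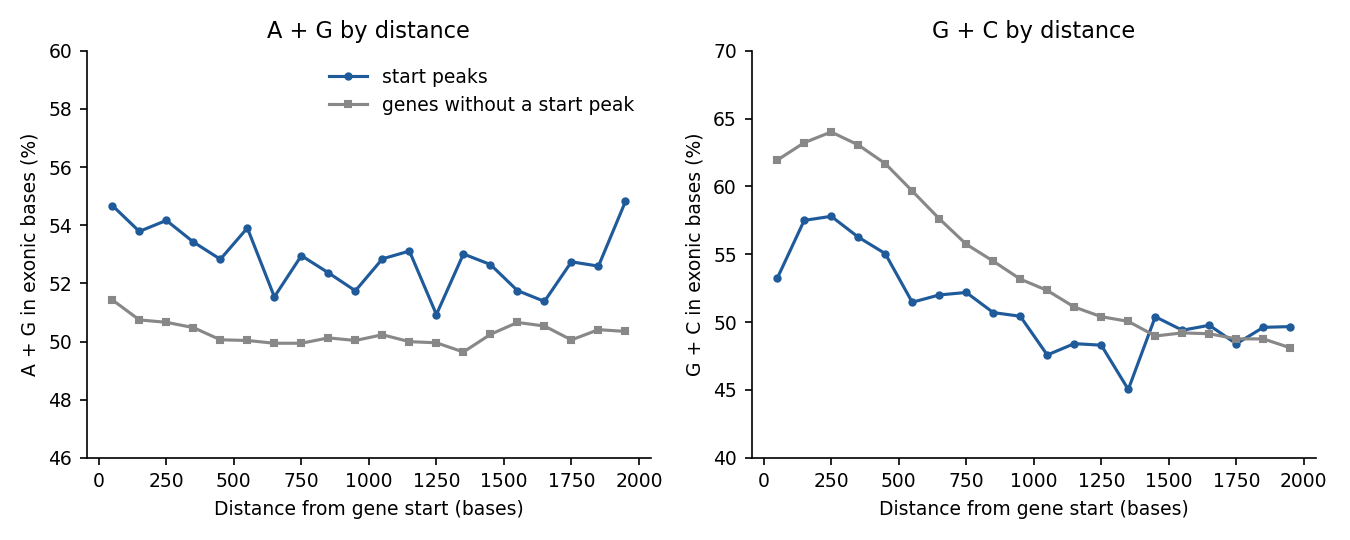
Share (%) of A and G (left) and of G and C (right) in exonic bases by distance from the gene start in steps of 100 bases, under start peaks and in genes without one. The axes do not begin at 0; at 200 to 299 bases G and C was 57.8% under peaks and 64.0% in the other genes.

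The hexamers capitalised above were also more frequent under start peaks. On the sense strand they occurred, counted together and with overlaps, 3.89 times per kb of exonic sequence downstream of the start in start peaks and 1.90 times per kb at the same distances in genes without one. At least 1 was present in 129 of the 210 peaks. They were chosen because exonic peaks of this list as a whole are known to be rich in them, so this is no independent evidence. A match describes letters and not a binding site.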

How the data were processed

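RNA was recovered with SAFB1, FLAG or IgG antibodies, and libraries were made after ribosomal RNA removal with ERCC spike-ins, per the labels' protocols. The submitters' processing notes name mm10, STAR, Subread and featureCounts without versions. How peaks were called, and from which libraries, is not given in the sources used here. Deposited by the authors was 1 peak list whose score is 500 in every row, which was not used. Starts were read as counted from 0. GENCODE M21 (55450 genes) gave genes, exons and transcript sequences. Shares carry 95% Wilson intervals (scipy 1.17.1), and no test between conditions was possible. Counting functions were tested on simulated data. Named genes are those with most start peaks (none had 3, so those with 2), the 10 widest peaks, the 10 nearest to a start, 5 on each side of the limit, the 10 with most sense peaks, the 10 longest without further peaks, and list members, and others are marked. One gene that this rule names is not reported here. No sequence from chromosome 18 is printed. The members and the 16 gene lists (406 entries) were chosen with earlier results of these data known. Settings varied were window, gene length, peak width, overlap, start definition and exon set. Promoter sequences were not used here.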

Additional observations from a re-analysis of the deposited data

How the results depend on the processing

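Of 36 alternative values, 23 stayed within the counting interval of the value in the report. The share of genes with a start peak, 2.64%, followed the definition of the window: 1.35% for the first 1 kb, 6.18% for the first 5 kb, 1.74% when peaks narrower than the list's median of 596 bases were dropped, 3.28% with any overlap of 1 base, 1.82% with the peak wholly inside, and 4.84% counted from any protein-coding transcript start. The ratio of the first 2 kb to the next was 1.13 with wide peaks and 0.823 with any overlap, so its side of 1 depended on the setting. Exons of protein-coding transcripts alone held 32.7% of start peaks. Further sense peaks were found in 53.3% of genes with a wide start peak and in 27.5% of the others when only wide peaks counted, and beyond 10 kb in 51.3%. Upstream antisense peaks stood at 1.22% of genes with a wide start peak and 2.39% of the others, when only wide peaks counted. The median purine share of the central 200 bases was 54.0%. The cause of these moves was not tested beyond what each definition sets. No paired analysis was possible because the list holds no values per library, which is also why no library could be left out and no depth limit can be given.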

Other observations

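Genes that share a promoter region with a gene on the other strand carried start peaks more often. A gene start on the opposite strand lay within 1000 bases upstream of 70 of the 374 genes with a start peak (18.7%, 15.1 to 23.0) and of 11.9% (11.4 to 12.5) of the genes without. Read the other way, 4.09% of genes with such a neighbour had a start peak (3.25 to 5.13) and 2.44% of those without (2.18 to 2.73). The comparison was chosen after seeing the data.

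By chromosome, the share of genes with a start peak ran from 1.12% on chromosome 19 (0.479 to 2.59) to 6.97% on chromosome 18 (4.86 to 9.88), and was 2.58% on the X chromosome and 0 of 102 genes on the Y. Without the gamma protocadherin genes chromosome 18 had 8 of 381 genes (2.10%, 1.07 to 4.09), and the highest share was then 4.26% on chromosome 16 (2.78 to 6.49). Genes named Zfp with a number, many of which encode zinc-finger proteins, had a start peak in 14 of 323 cases (4.33%, 2.60 to 7.14), an interval that includes the share over all genes.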
